A study of Mus musculus with 12 samples.

Results

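The comparison described here sets 3T3 cells given 1 µM Shld1 against control 3T3 cells, and asks which transcripts differ at the highest dose of the series. The groups compared are 6 of 12 arrays, 3 per group, picked out by their titles. The other 6 arrays hold 10 nM and 100 nM Shld1, 3 arrays each, and enter the fit only for the estimate of the spread, so SEs and p-values rest on all 12. 3T3 is a line of mouse embryo fibroblasts. The labels give no strain, passage, vehicle or treatment time, do not say whether the cells carry a fusion protein that Shld1 would act on, and do not say whether the 3 arrays of a group came from separate cultures. The p-values below therefore measure only the spread among these arrays, which may be technical.

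Shld1 is a cell-permeant synthetic ligand made for an engineered form of FKBP12, the small prolyl isomerase that is the cellular receptor of the drugs FK506 and rapamycin. Fusion of a protein to that engineered form marks it for degradation by the proteasome, and binding of Shld1 stabilises it, so that the amount of the fusion follows the amount of ligand. The mouse's own FKBP12 is encoded by Fkbp1a.

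Each array was a spotted oligonucleotide array on which Cy5-labelled RNA of 1 sample competed with a Cy3-labelled commercial mouse reference RNA. A level below is the log2 ratio of the sample to that reference after each array was centred on its own median. A level of 0 is thus the array's median ratio, not equality with the reference. A change is the mean level at 1 µM minus the mean level in control. The number of arrays limits the precision. The 6 arrays had values for 31635 to 33342 of 38784 probes. They correlated at 0.748 to 0.799 within control, at 0.723 to 0.757 within 1 µM and at 0.694 to 0.812 between the groups, over probes, so the 2 groups did not stand apart as wholes. No pair of arrays had identical values: at most 0.163% of values were equal.

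The labelled cell type was set beside marker lists, whose levels are ratios to the reference. Of 23 fibroblast and matrix genes measured, 22 had a mean level above 0 in control and 20 at 1 µM. Lumican, a small proteoglycan of collagen matrix, had a mean level of 4.20 ± 0.28 (SD, n = 3) in control. Of 15 macrophage and leukocyte markers, 0 had a mean level above 0 in control and 3 did at 1 µM. Other lists were mixed. In control the mean level was above 0 for 4 of 10 epithelial, 4 of 7 endothelial, 6 of 12 muscle and neuronal and 3 of 7 adipocyte markers. The mean over the leukocyte list was -1.69, -0.99 and -0.64 on the control arrays and -0.94, -0.62 and -0.53 on the 1 µM arrays. Ptprc, the pan-leukocyte phosphatase CD45, was at -3.48, -2.44 and -1.93 in control and at -3.15, -2.07 and -1.75 at 1 µM, low in both groups. In RNA from a whole culture, fewer cells of a type and less RNA per cell cannot be told apart.

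At 1 µM, 1 of 31250 probes tested passed an adjusted p of 0.05 (limma, Benjamini-Hochberg adjustment over all probes). It was lower: 0% of probes were called higher and 0.0032% lower. The probe, number 27598 on the array, has no gene symbol in the platform annotation. Its level was 1.72, 1.71 and 0.85 on the control arrays and -1.84, -2.64 and -2.33 on the 1 µM arrays. The groups did not overlap, and the gap between the lowest control and the highest 1 µM array was wider than the spread within either group. The change was -3.70 (SE 0.36, 95% interval -4.49 to -2.91), a 13.0-fold lower ratio, with an adjusted p of 0.0106 by limma.

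Probe 27598 was not low at the other doses. Its level was 0.51, 1.75 and 1.60 at 10 nM and 0.47, 1.06 and 1.12 at 100 nM, which overlapped the control arrays at 10 nM and at 100 nM. Against the same controls its change was -0.14 (SE 0.36) at 10 nM and -0.54 (SE 0.36) at 100 nM. Among tested probes with neighbouring numbers, the change at 1 µM was 0.26 for probe 27596, -0.12 for probe 27597 and -0.06 for probe 27600. Control levels were already low for probe 27596 (-3.921 to -3.051) and probe 27600 (-2.385 to -2.305), which left little room for a like drop. Neighbouring numbers were not checked to be neighbouring spots. The call depended on the design: in 5 of 17 other settings of the fit no probe passed. Its limma adjusted p was 0.0905 in a fit to the 6 arrays alone and 0.0794 with the replicate number as a fixed term. With control replicate 1 left out it was 0.0866, with control replicate 2 left out 0.0934, and with 1 µM replicate 3 left out 0.0812.

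**Figure D1:**
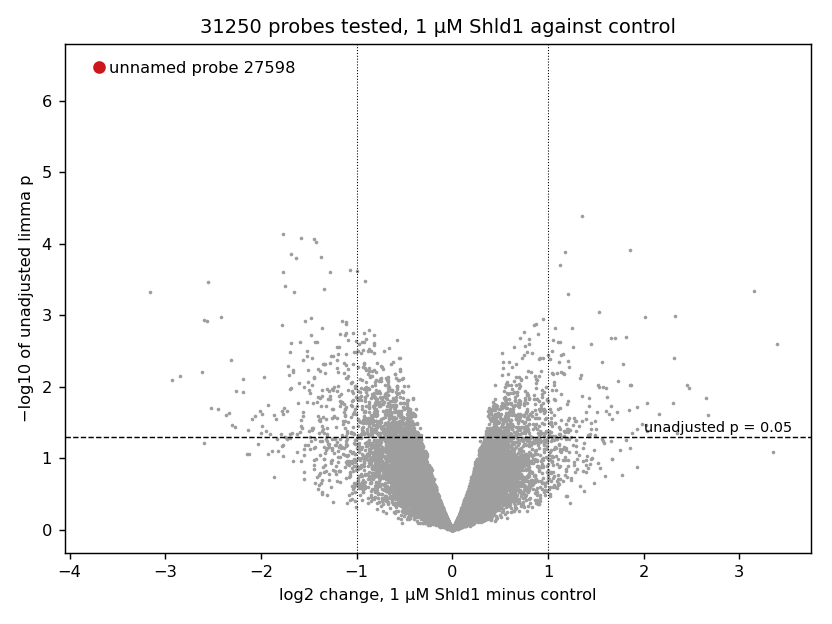
Change at 1 µM against control (horizontal axis, log2) and −log10 of the unadjusted limma p (vertical axis) for each of 31250 probes tested; dotted lines mark 2-fold. Probe 27598 stands alone at the upper left, with a change of -3.70, while the other probes form 1 cloud around 0.

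Without adjustment, 1357 probes (4.34%) had a p under 0.05, fewer than the 1562 that a uniform spread of p-values would give. The estimate lay beyond 2-fold for 251 probes higher (0.803%) and 369 lower (1.18%), and none of these but probe 27598 passed. When the probes of a gene were averaged, 0 of 13454 genes passed (0%; limma, smallest adjusted p 0.998), and 571 had an unadjusted p under 0.05, against 673 by chance. Of all genes, 233 were higher (1.73%) and 338 lower (2.51%) at an unadjusted p under 0.05. The 3 arrays at 1 µM all lay above the 3 controls for 449 genes (3.34%) and all below them for 569 (4.23%). Every gene named below is one that did not pass the adjusted threshold, and its values are given as a description with the unadjusted p.

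The intervals of the fit bound the difference between these arrays only. The spread among the arrays may be technical, so the intervals set no limit on a biological effect of Shld1. They cover the genes in the gene fit, not the probes left out of the tests. The 95% interval of the change lay within 2-fold either way for 86.7% of all genes and for 95.7% of the 4087 genes with at least 2 probes. The median SE of the change was 0.22 for genes with 1 probe and 0.14 for the 23 genes with 10 or more.

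The FK506-binding proteins, prolyl isomerases that include FKBP12, for whose engineered form Shld1 was made, were described first. Of 12 measured, 0 passed, 5 had a change above 0 and 7 below, and the median was -0.06, against -0.01 over all genes. Fkbp1a was at 0.52, 0.28 and 0.46 in control and at 0.52, 0.52 and 0.27 at 1 µM, so the groups overlapped fully. Its change was 0.02, with a 95% interval of -0.28 to 0.32, and its 3 probes gave -0.02, 0.04 and 0.04. Fkbp4, a co-chaperone of HSP90 and steroid receptors, had a change of 0.04 (95% interval -0.37 to 0.44), with 0.26 and -0.18 by its 2 probes. Fkbp5, a related co-chaperone that glucocorticoids induce, was at -0.40, -0.52 and -0.29 in control and at -0.80, -0.51 and -0.86 at 1 µM, with a change of -0.32 (SE 0.17) and an interval from -0.69 to 0.05. The 2 groups overlapped for Fkbp5 through 1 array at 1 µM. For 11 of the 12 the interval lay within 2-fold.

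Genes measured by at least 2 probes give a check that a single spot does not. Among these, 1.2% were higher and 2.03% lower at an unadjusted p under 0.05. Ppp6c, the catalytic subunit of the phosphatase PP6, was at -0.12, 0.06 and -0.16 in control and at 0.55, 0.65 and 0.43 at 1 µM. All 3 arrays at 1 µM lay above all controls. The change was 0.61 (SE 0.16, unadjusted p = 0.00286), with 0.29 and 0.94 from its 2 probes. Igsf3, an immunoglobulin-domain membrane protein, was at 0.11, 0.50 and 0.34 in control and at 0.82, 0.94 and 0.72 at 1 µM, again with no overlap. Its 2 probes gave 0.45 and 0.56. Rrm2b, the p53-inducible small subunit of ribonucleotide reductase, was at -0.78, -0.19 and -0.48 in control and at -0.04, 0.17 and 0.15 at 1 µM. Its probes gave 0.52 and 0.63, and the gene value was 0.58 (SE 0.21).

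Other genes with the smallest p on the higher side were Mapk6, an atypical MAP kinase (0.51, SE 0.15), Kmt2c, a histone H3 lysine 4 methyltransferase (0.50, SE 0.17), and Nes, the intermediate filament protein nestin (0.74, SE 0.26). Slc25a32, a mitochondrial folate carrier, had a change of 0.46 (SE 0.17) and Adam25, a testis metalloprotease, of 0.60 (SE 0.23). In several of these genes the probes disagreed. Slc25a32 gave 0.88 by 1 probe and 0.04 by the other, and Mapk6 gave 0.90 and 0.13. Stat4, a transcription factor of interleukin-12 signalling, gave 1.85 by 1 probe and 0.07 by the other. Csnk1e, a kinase of the circadian clock, gave 1.35 by 1 probe and 0.04 and 0.07 by the others. The gene values were 0.96 for Stat4 and 0.49 for Csnk1e. Adam25 gave 0.64 and 0.57, Kmt2c 0.38 and 0.61, and Nes 0.52 and 0.96.

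On the lower side, Gpc4, a cell-surface heparan sulphate proteoglycan, was at 1.06, 0.75 and 0.59 in control and at 0.37, -0.18 and -0.05 at 1 µM. The groups did not overlap, and the change was -0.75 (SE 0.22, unadjusted p = 0.00493), with -0.88 and -0.62 by its probes. Tlr4, the receptor for bacterial lipopolysaccharide, was at 0.75, 0.95 and 0.60 in control and at 0.27 on each of the 3 arrays at 1 µM. Its 3 probes gave -0.46, -0.54 and -0.49. Dhx58, an RNA helicase related to the antiviral sensor RIG-I, was at -0.23, -0.31 and -0.29 in control and at -0.93, -0.89 and -0.50 at 1 µM, with -0.52, -0.54 and -0.44 by its 3 probes. Every probe of these 3 genes had a change below 0, but single probes of Tlr4 and Dhx58 overlapped between the groups on some arrays where the gene values did not.

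The other genes of this group were Cmc2, a factor of cytochrome c oxidase assembly (-0.81, SE 0.24), Eri2, a putative exonuclease (-0.83, SE 0.25), and Lyplal1, a thioesterase-like hydrolase (-0.56, SE 0.17). Tssk1, a testis-specific kinase, had a change of -0.55 (SE 0.18), Mettl5, a ribosomal RNA methyltransferase, of -0.43 (SE 0.14), and Gramd3, a GRAM-domain protein, of -0.75 (SE 0.25). The probes of Tssk1 gave -0.20 and -0.90, and those of Gramd3 -0.38 and -1.12. Shkbp1, a binding partner of the adaptor SH3KBP1, had the smallest p of the group (-0.81, SE 0.19), but its 2 probes gave -1.77 and 0.15. Of the 4087 genes with at least 2 probes, 1906 had all probes in the same direction. Only 6 of the 4087 also had every probe at an unadjusted p under 0.05. All 6 are listed here: Cmc2, Flcn, Gpc4, Igsf3, Lmcd1 and Rrm2b. Flcn and Lmcd1 were named after their values were seen.

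**Figure D2:**
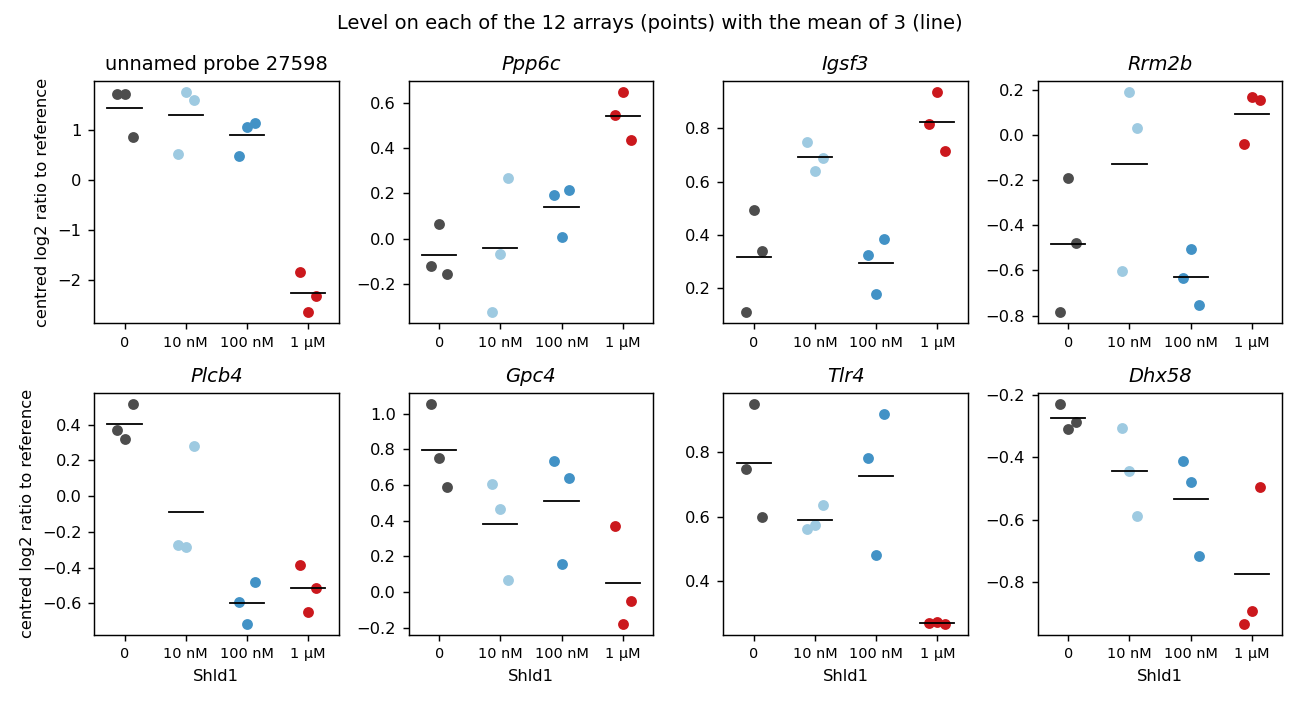
Level (log2 ratio to reference, each panel with its own scale) on each of the 12 arrays for probe 27598 and 7 genes, by Shld1 dose; points are arrays and lines the mean of 3. Only for probe 27598 did the difference at 1 µM pass the adjusted threshold; at 1 µM the 3 arrays lie clear of the 3 controls in all panels.

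The same controls entered the comparisons at the other doses, whose values stand here side by side. Ppp6c had changes of 0.03 at 10 nM and 0.21 at 100 nM, Igsf3 of 0.38 and -0.02, and Rrm2b of 0.36 and -0.15. Gpc4 had changes of -0.42 and -0.29, Tlr4 of -0.17 and -0.04, and Dhx58 of -0.17 and -0.26. Plcb4, a phospholipase C that cleaves phosphatidylinositol bisphosphate, had a change of -0.49 at 10 nM, -0.998 at 100 nM and -0.92 at 1 µM (SE 0.17). It was at 0.37, 0.32 and 0.52 in control and at -0.39, -0.65 and -0.51 at 1 µM, by its 1 probe.

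The widest changes were taken among probes with 1 symbol, a value on all 6 arrays and an unadjusted p under 0.05. Most came from spots that varied widely within a group. On the higher side the probe of Elmo1, a Rac activator in cell engulfment, gave 2.45 (SE 0.79), with controls at -3.74, -2.02 and -0.13. Fgf11, an intracellular member of the FGF family, gave 2.30 (SE 0.83), and Gata3, a transcription factor of T helper cells and other lineages, gave 1.66 (SE 0.61). Klri2, a receptor of natural killer cells, gave 1.72, with 1 control at -5.25 and the others at -2.29 and -2.08. Sla, an adaptor of lymphocyte receptor signalling, gave 1.64, with 1 control at -4.50 and the others at -1.71 and -1.40. The exception was the probe of Stat4 with a change of 1.85 (SE 0.32), at -3.24, -2.85 and -2.74 in control and at -1.53, -0.91 and -0.83 at 1 µM, with no overlap. All 6 probes had a mean level below 0 in control.

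On the lower side single arrays stood far from the others of their group. Sox5, a transcription factor of cartilage development, gave -2.30 (SE 0.95), with 0.87, -0.50 and -4.23 at 1 µM. The other tested probes of Sox5 gave changes of 1.03, -0.40, -0.25 and 0.19. Mis12, a kinetochore protein, gave -2.28 (SE 0.97), with -0.67, 0.06 and -5.03, and its other probe gave a change of -0.19. Pcdhb5, a protocadherin, gave -2.13, with 1.04, -0.03 and -3.87. For Man1a, a Golgi mannosidase, the 1 µM arrays were at -1.01, -5.13 and -2.97, and for Shisal1 at -3.85, 0.71 and -1.21. The other probe of Shisal1 gave a change of 0.08. Fgf16, a secreted growth factor, gave -1.78 (SE 0.67). The SEs of these probes were over the 0.24 that was the median over all probes.

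The gene lists were described by counts and medians, beside the same over all genes: 52.9% of genes had a change below 0 and 47.1% above. The 37 lists name 796 genes, of which 680 were measured. Of the 680, 33 had an unadjusted p under 0.05, beside 4.24% of all genes. The median over these 680 was -0.01, as over all genes. Of the 37 medians, 23 had the other sign under at least 1 alternative setting, so a median near 0 has no settled direction. In the gene fit, 9367 genes had 1 probe in their value, which gives no check by another spot. Among them are Camk1d, Tmed6, Tbc1d9, Cebpg, Pim1, Itgax and Adgre1, described below.

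**Figure D3:**
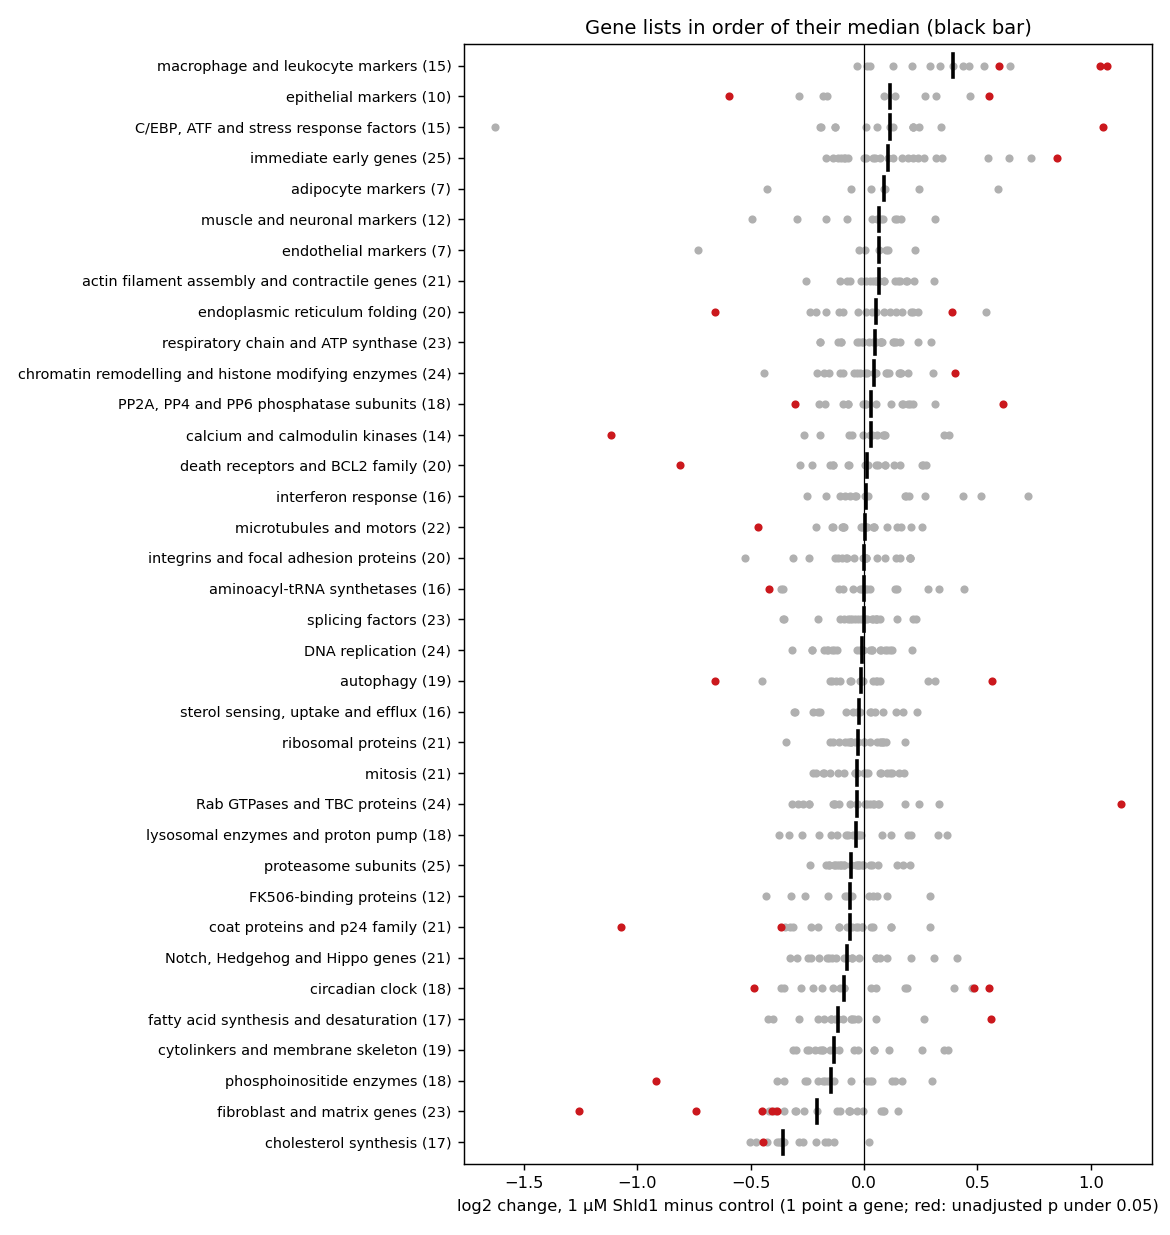
Change at 1 µM against control (log2) of the measured members of the gene lists, 1 point a gene, with the number measured in brackets; the black bar is the list's median, and red points have an unadjusted p under 0.05. Most medians lie near 0; cholesterol synthesis (-0.36) is the lowest and the macrophage and leukocyte markers (0.39) the highest.

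Cholesterol synthesis had the lowest median of the lists. The pathway turns acetyl units through mevalonate, isoprenoids and squalene into sterol, and its genes share the transcription factor SREBP2, which is released when membrane sterol is low. Of 17 genes measured, 16 had a change below 0 and 1 above, with a median of -0.36. For 6 genes the 3 arrays at 1 µM all lay below the 3 controls, as for 4.23% of all genes. An unadjusted p under 0.05 was found for 1 gene (5.88%), against 4.24% of all genes. The mean level over the list was 0.98, 0.77 and 0.83 on the control arrays and 0.51, 0.50 and 0.65 on the 1 µM arrays, which did not overlap. At 10 nM it was 0.67, 0.72 and 0.75, and at 100 nM 0.77, 0.58 and 1.20. Against the shared controls, 12 of the 17 were below 0 at 10 nM (median -0.19) and 10 at 100 nM (median -0.02).

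In the order of the pathway, Hmgcs1, which makes HMG-CoA, was at 1.45, 0.81 and 0.58 in control and at 0.48, 0.19 and 0.72 at 1 µM, a change of -0.48 (SE 0.25) with overlapping groups. Mvk, Pmvk and Mvd, which convert mevalonate, had changes of -0.36, -0.17 and -0.27, and Idi1, the isopentenyl diphosphate isomerase, a change of -0.29. Fdps, which makes farnesyl diphosphate, had a change of -0.13. Fdft1, squalene synthase, was the exception at 0.02 (SE 0.35); its 3 controls spread from -1.87 to -0.57. Sqle, which epoxidises squalene, was at 1.10, 0.80 and 0.95 in control and at 0.44, 0.70 and 0.65 at 1 µM, with no overlap and a change of -0.35 (SE 0.17).

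Lss, which closes the sterol rings, had a change of -0.36. Cyp51, the lanosterol demethylase, was at 1.53, 1.31 and 1.05 in control and at 0.98, 0.60 and 0.80 at 1 µM, with no overlap and -0.54 and -0.46 by its 2 probes. Nsdhl, a dehydrogenase of sterol demethylation, was at 1.37, 1.25 and 1.18 in control and at 1.06, 0.87 and 0.54 at 1 µM, a change of -0.45 (SE 0.18, unadjusted p = 0.0292). Its 3 probes gave -0.25, -0.16 and -0.93. Msmo1 and Hsd17b7, of the same demethylation steps, had changes of -0.36 and -0.39 without overlap between the groups. Ebp, Sc5d and Dhcr7, of the last steps, had changes of -0.21, -0.38 and -0.43, and Tm7sf2, a reductase of an earlier step, of -0.16. No gene of the list passed the adjusted threshold; leaving out control replicate 1 moved the median to -0.24, the value nearest to 0 among the alternatives.

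**Figure D4:**
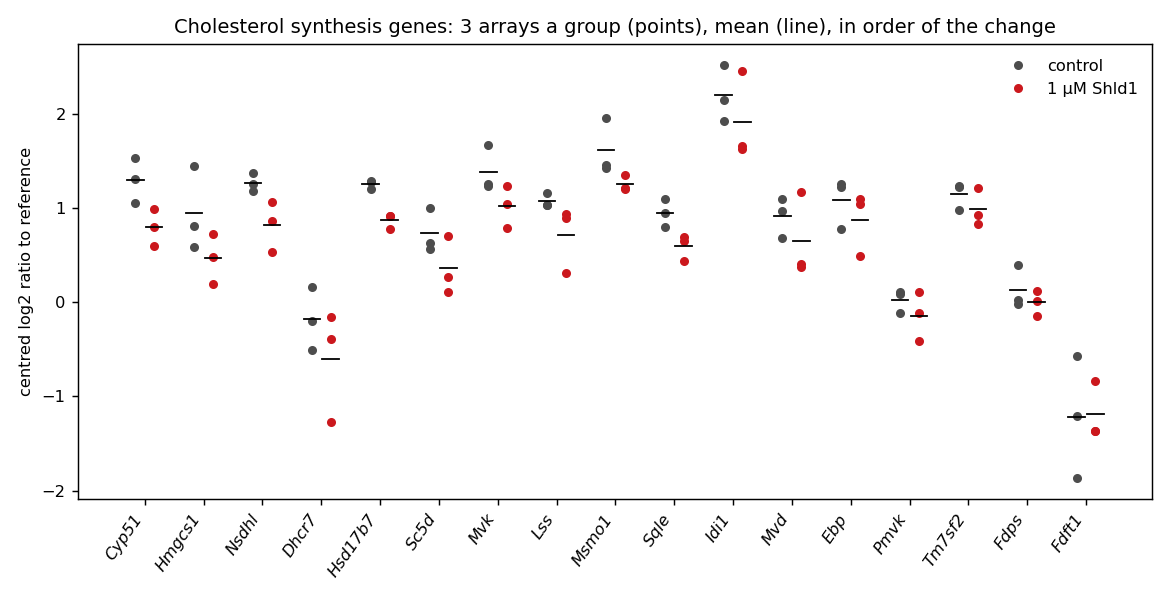
Level (log2 ratio to reference) of the 17 cholesterol synthesis genes on the 3 control arrays (grey) and the 3 arrays at 1 µM (red), with the mean of each group as a line. The 1 µM mean lies below the control mean for 16 genes, and the arrays of the groups are apart for 6 of them. Over all genes, 4.23% had all 3 arrays at 1 µM below the 3 controls.

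The genes of this pathway are known to share regulators, so the promoters of Hmgcs1, Nsdhl and Cyp51 are shown as they stand in RefSeq's annotation of GRCm38.p6, from 250 bases before to 50 bases after the annotated start. Hmgcs1 is at chr13:119690101-119690400 (plus strand), Nsdhl at chrX:72918271-72918570 (plus strand) and Cyp51 at chr5:4104648-4104947 (minus strand), each read 5′ to 3′ on the gene's own strand. Capitals mark CCAAT or its reverse complement ATTGG, the box read by NF-Y, and TCACNCCAC or its reverse complement, a form of the sterol regulatory element read by SREBP.
Hmgcs1: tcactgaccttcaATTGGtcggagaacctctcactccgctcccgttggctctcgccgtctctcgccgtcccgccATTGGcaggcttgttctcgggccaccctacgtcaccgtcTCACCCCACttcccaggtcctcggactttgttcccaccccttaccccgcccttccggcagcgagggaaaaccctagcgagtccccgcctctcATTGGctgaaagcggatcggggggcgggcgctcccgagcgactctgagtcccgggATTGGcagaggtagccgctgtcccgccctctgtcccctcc
Nsdhl: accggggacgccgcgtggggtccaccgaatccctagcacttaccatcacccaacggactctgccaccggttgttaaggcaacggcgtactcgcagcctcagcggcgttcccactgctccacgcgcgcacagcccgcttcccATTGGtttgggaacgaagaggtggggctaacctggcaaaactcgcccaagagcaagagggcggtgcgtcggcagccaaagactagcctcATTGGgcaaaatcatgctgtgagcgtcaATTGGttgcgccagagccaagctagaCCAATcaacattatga
Cyp51: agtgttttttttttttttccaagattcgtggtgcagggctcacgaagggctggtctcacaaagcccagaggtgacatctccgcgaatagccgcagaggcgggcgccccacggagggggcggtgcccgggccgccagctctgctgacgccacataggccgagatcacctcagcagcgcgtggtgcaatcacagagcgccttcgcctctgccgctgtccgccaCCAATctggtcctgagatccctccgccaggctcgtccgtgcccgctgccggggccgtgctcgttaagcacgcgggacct

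Of the 17 measured genes 14 have a promoter in that table. All 14 hold a CCAAT box on either strand in at least 1 promoter, against 41.1% of 27025 genes, and 14 of their 17 promoters hold it, against 37.4% of 32851. The sterol regulatory element in this form was in 1 of the 14, Hmgcs1, at 137 bases before the start, against 1.44% of all genes. In the Hmgcs1 window it does not overlap the CCAAT matches. These matches describe the sequence in these windows; no binding was measured.

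Of 16 genes that sense, import and export sterol, 9 had a change below 0 and the median was -0.02. Insig1, which holds the SREBP machinery in the endoplasmic reticulum and is itself a target of SREBP, was at 1.90, 1.85 and 1.87 in control and at 1.69, 1.42 and 1.57 at 1 µM, with no overlap and a change of -0.31 (SE 0.17). Stard4, a sterol carrier, had a change of -0.31 (SE 0.24) and Mbtps2, the protease that releases SREBP, of 0.17 (SE 0.13), with -0.07 to 0.43 over its 4 probes. Of 17 genes of fatty acid synthesis and desaturation, 14 had a change below 0 and the median was -0.12. Acly, which makes cytosolic acetyl-CoA, had a change of -0.42 (SE 0.24) and Fads2, a desaturase, of -0.29 (SE 0.15). Elovl5, an elongase, was at 0.05, -0.02 and -0.24 in control and at 0.49, 0.18 and 0.80 at 1 µM, a change of 0.56 (SE 0.20) in the other direction.

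Of 23 fibroblast and matrix genes, 19 lay below 0, against 52.9% of all genes. Of the 23, 5 were lower at an unadjusted p under 0.05 (21.7%), against 2.51% of all genes. The median over the 23 was -0.21. Lum was at 4.50, 3.97 and 4.12 in control and at 3.24, 3.17 and 2.40 at 1 µM, with no overlap and a change of -1.26 (SE 0.46), by 1 probe. Fstl1, a secreted glycoprotein, had a change of -0.74 (SE 0.26), and Col3a1, the chain of type III collagen, of -0.45 (SE 0.18). Dcn, the proteoglycan decorin, had a change of -0.38 (SE 0.17) and Mmp2, a gelatinase, of -0.41 (SE 0.19). Vim, vimentin, and Fn1, fibronectin, were at 0.15 and 0.07. Leaving out control replicate 1 brought the median to -0.10, and leaving out 1 µM replicate 3 to -0.06. Lum had a change of -0.98 at 10 nM and -1.07 at 100 nM against the same controls.

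Of 15 macrophage and leukocyte markers, 14 lay above 0, and the median was 0.39. The mean of the list did not separate the groups, and without control replicate 1, the array with the lowest mean of -1.69, the median was 0.17. Adgre1, the macrophage antigen EMR1, was at -1.81, -0.66 and -0.55 in control and at -0.52, 0.14 and 0.48 at 1 µM, a change of 1.04 (SE 0.43). Itgax, the integrin CD11c, had a change of 1.07 (SE 0.43) and Spn, the leukocyte sialoglycoprotein CD43, of 0.59 (SE 0.24), with 0.08 and 1.10 by its 2 probes. The interval lay within 2-fold for 3 of the 15, so these markers bound little. At 10 nM the median was 0.50 and at 100 nM 0.13, with shared controls. The part of other cells in these ratios was not tested.

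The other marker lists were near 0. The median was 0.11 over 10 epithelial markers, 0.07 over 7 endothelial markers, 0.07 over 12 muscle and neuronal markers and 0.09 over 7 adipocyte markers. Epcam, an epithelial adhesion protein, had a change of 0.55 (SE 0.25), while Spint1, an epithelial protease inhibitor, had a change of -0.59 (SE 0.27), with -0.04 and -1.15 by its 2 probes. Pparg, the master factor of fat cells, had a change of 0.59 (SE 0.38), and Adipoq, adiponectin, of -0.43 (SE 0.23). Tek, an endothelial receptor, had a change of -0.73 (SE 0.44).

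Signalling enzymes were taken in 3 lists. Of 18 phosphoinositide enzymes, 11 were below 0 with a median of -0.14. Plcb4 had the smallest p of these (unadjusted p = 0.00017), and Plcd1, a related phospholipase, had a change of -0.35 (SE 0.19). Of 14 calcium and calmodulin kinases the median was 0.03. Camk1d, a calmodulin kinase, was at 0.62, 0.44 and 0.70 in control and at -0.89, -0.10 and -0.59 at 1 µM, with no overlap and a change of -1.11 (SE 0.25). Of 18 subunits of the phosphatases PP2A, PP4 and PP6 the median was 0.03. Ppp2r5e, a regulatory subunit of PP2A, was at -0.01, 0.07 and 0.01 in control and at -0.24, -0.29 and -0.31 at 1 µM, a change of -0.30 (SE 0.13), with -0.46, -0.03 and -0.42 by its 3 probes.

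Among trafficking genes, 16 of 21 members of the coat protein and p24 list were below 0, with a median of -0.06. Tmed6, a p24 cargo receptor, was at 0.67, 0.53 and 0.37 in control and at -0.64, -0.22 and -0.80 at 1 µM. Its change was -1.07 (SE 0.19, unadjusted p = 0.000132), the smallest p in the list. It was also -0.62 at 10 nM and -0.65 at 100 nM against the same controls. Sec13, a COPII coat subunit, had a change of -0.37 (SE 0.16). Of 24 Rab GTPases and TBC proteins the median was -0.03, and Tbc1d9, a Rab GTPase activator of the TBC family, had a change of 1.13 (SE 0.30), with no overlap between its groups.

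Transcription factors and stress genes had medians slightly above 0. Of 25 immediate early genes, which growth factors and stress induce within the first wave of transcription, 17 were above 0 with a median of 0.11. Pim1, a serum-responsive kinase, was at -2.39, -2.67 and -1.94 in control and at -1.58, -1.63 and -1.24 at 1 µM, with no overlap and a change of 0.85 (SE 0.19). Klf2 and Fosl1, early transcription factors, had changes of 0.55 (SE 0.26) and 0.34 (SE 0.18). Of 15 C/EBP, ATF and stress response factors, 10 were above 0 with a median of 0.11. Cebpg, a C/EBP partner of ATF4, was at -1.39, -1.38 and -0.56 in control and at 0.43, -0.24 and -0.36 at 1 µM, a change of 1.06 (SE 0.26) without overlap. Chac1, a glutathione-degrading target of ATF4, had -1.63 (SE 0.85), with 1 array at 1 µM at -5.90 and the others at -1.74 and -1.89.

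In the protein quality lists, Dnajc3, an endoplasmic reticulum co-chaperone, had a change of -0.66 (SE 0.24) and Derl1, a channel of protein export for degradation, of 0.39 (SE 0.17), beside a median of 0.05 over 20 folding genes. Of 25 proteasome subunits, 19 were below 0 with a median of -0.06, and for all 25 the interval lay within 2-fold. Map1lc3b, the autophagosome protein LC3B, had a change of -0.66 (SE 0.21) and Atg4b, the protease that processes it, of 0.56 (SE 0.22), with a median of -0.01 over 19 autophagy genes. Fas, the death receptor, was at 0.06, 0.08 and -0.24 in control and at -1.22, -1.21 and -0.10 at 1 µM, so 1 array at 1 µM lay among the controls. Another tested probe of Fas, valued on 2 arrays at 1 µM (-0.99 and 0.17), gave a change of -0.24 and is not in the gene value.

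The circadian list held Per3, a period protein (-0.48, SE 0.21, with -0.13 and -0.84 by its 2 probes), and Hlf, a PAR-domain factor (0.55, SE 0.25), with a median of -0.09 over 18 genes. Tubg1, gamma-tubulin, had a change of -0.47 (SE 0.17), Farsa, a phenylalanyl-tRNA synthetase subunit, of -0.42 (SE 0.16), and Dnmt3a, a DNA methyltransferase, of 0.40 (SE 0.14). Another tested probe of Dnmt3a, with values on 3 control arrays and 2 arrays at 1 µM, gave -0.26 and is not in the gene value. Cell growth lists lay close to 0. The median was -0.01 over 24 DNA replication genes, -0.03 over 21 mitosis genes, -0.03 over 21 ribosomal proteins and 0.05 over 23 respiratory chain genes. In these lists 0 genes had an unadjusted p under 0.05, and the interval lay within 2-fold for all 24, 20 of 21, all 21 and all 23. The medians over 23 splicing factors, 16 aminoacyl-tRNA synthetases and 20 integrin and focal adhesion genes were each within 0.01 of 0.

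The remaining lists also had medians near 0. The lowest was -0.13 over 19 cytolinkers and membrane skeleton proteins, of which 13 lay below 0; Epb41l2, a protein of the membrane skeleton, had a change of 0.35 (SE 0.16) and Ank1, an ankyrin, of -0.31 (SE 0.16). The 4 probes of Epb41l2 gave -0.17, 0.45, 1.18 and -0.06, and the 3 of Ank1 in its gene value gave -0.54, -0.42 and 0.02. Over 21 genes of actin assembly and contraction the median was 0.06, with 16 above 0, and Capg, which caps actin filaments, had a change of 0.31 (SE 0.15). The median was -0.07 over 21 Notch, Hedgehog and Hippo genes, -0.04 over 18 lysosomal genes and 0.01 over 16 interferon response genes. Psmb8 and Psmb9, interferon-induced subunits of the immunoproteasome, had changes of 0.44 (SE 0.22) and 0.51 (SE 0.26), although 1 of the 3 probes of Psmb8 gave 0.03. The median was 0.01 over 20 death receptor and BCL2 family genes and 0.05 over 24 chromatin genes. Over 22 genes of microtubules and motors it was 0.0046.

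A set of 23 genes was covered by 10 or more probes, which shows how far probes of 1 transcript differ. Lrp1, a lipoprotein receptor, had 88 probes, whose changes ran from -0.34 to 0.48, and a gene value of 0.08 (SE 0.18). Gapdh, a glycolytic enzyme, with 30 probes, had a change of -0.02 (95% interval -0.32 to 0.29), and Actb, beta-actin, with 20 probes, a change of 0.01 (-0.32 to 0.34). Hprt, a purine salvage enzyme with 66 probes, was at 0.00 (95% interval -0.28 to 0.27) although 1 of its probes gave -1.33. All 14 probes of Vim lay above 0, and all 20 of Pcdhga12 lay below 0, with gene values of 0.15 (SE 0.15) and -0.34 (SE 0.19). Pcdhga12 belongs to the gamma protocadherin cluster, whose transcripts share their last exons. For Elmo1, 13 of 14 probes lay above 0, from -0.34 to 2.45, and the gene value of 0.53 (SE 0.27) was well under that of its widest probe. Probes of 1 gene share the RNA, so their number is not a number of replicates.

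**Figure D5:**
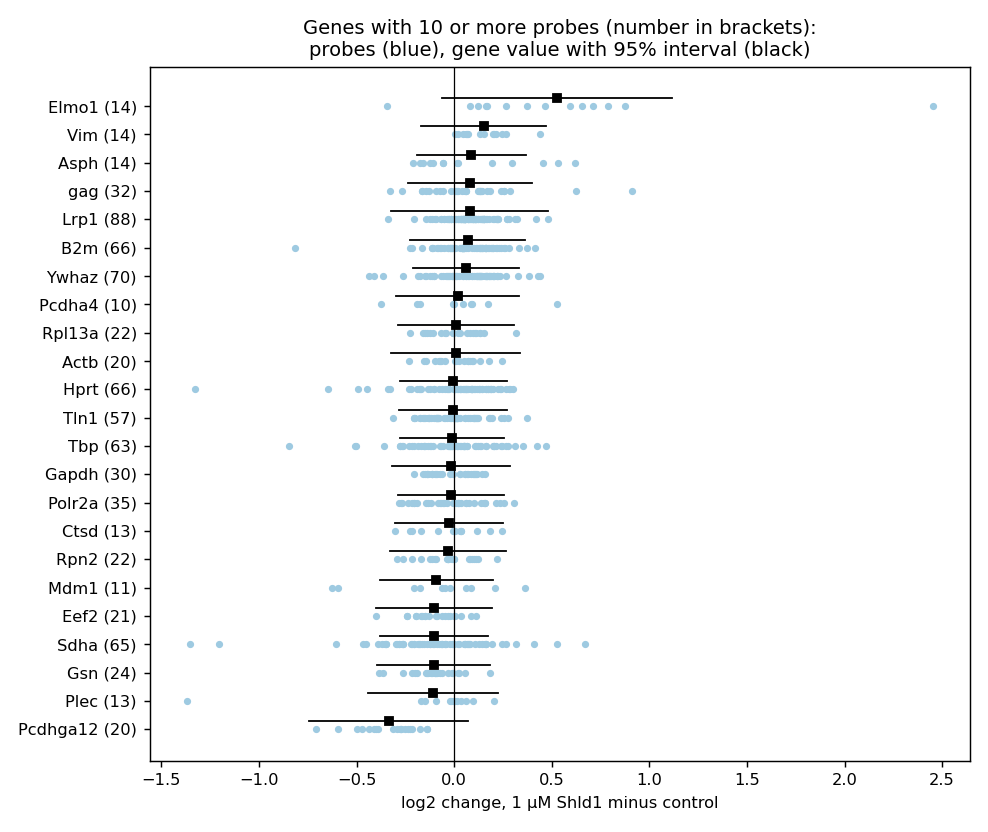
Change at 1 µM against control (log2) of each probe (blue) of the 23 genes with 10 or more probes, with the gene's value and its 95% interval (black); the number of probes is in brackets. Single probes reach -1.37 for Plec and 2.45 for Elmo1, while every gene's interval includes 0.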

How the data were processed

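The deposited values were log2 ratios of sample (Cy5) to reference (Cy3), per the labels' dyes. The normalization, log base and spot filters were not given in the sources used here, and base 2 was assumed. Blank values were left blank, and the array's median was subtracted from its other values. A probe was tested if at least 2 of the 3 arrays of each group held a value. The fit by group ran over all 12 arrays with limma 3.58.1 in R 4.3.3 (lmFit, eBayes, Benjamini-Hochberg). A gene value is the mean over its tested probes valued on all 6 arrays. Of 38784 probes, 26173 had 1 symbol in the platform annotation, 28 several and 12583 none; 7534 were left out of the tests. The fit was tested on simulated data. Plots and promoter searches used Python 3.11.15 with matplotlib 3.10.9.

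Named genes were every probe that passed, the 10 higher and 10 lower genes of smallest p with at least 2 probes (provisional symbols were passed over here and for single probes), the 6 higher and 6 lower probes of largest change among those with 1 symbol, a value on all 6 arrays and an unadjusted p under 0.05, the 3 unnamed probes of smallest p, up to 3 genes per list, and Fkbp1a, Fkbp4 and Fkbp5. Other list members named, and genes with 10 or more probes, were chosen after their values were seen. The arrays compared and the lists were chosen with earlier results of these data known; 1 list is not reported here. Alternatives covered centring, scale, filters, variance, replicate block and each array left out.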

Additional observations from a re-analysis of the deposited data

How the results depend on the processing

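Replicate numbers 1 to 3 were shared by the groups, and each number also held 4 neighbouring array numbers. Deviations of same-numbered control and 1 µM arrays correlated at -0.104 to 0.253 over 3 pairs. Over all 12 arrays, 18 same-numbered pairs correlated at -0.104 to 0.253 and 36 differently numbered pairs at -0.314 to 0.208. The main fit held no term for the number, and whether arrays of 1 number share a batch was not tested. With the replicate block as a fixed term, probe 27598 kept its change of -3.70, its limma adjusted p was 0.0794 and 0 probes passed; with a random replicate block 1 passed. Within numbers 1 to 3 its change was -3.56, -4.35 and -3.17. With the 6 arrays alone its change was -3.70, its adjusted p 0.0905, and 0 probes passed. Leaving out each array in turn gave changes of -3.99 to -3.51 and 0 to 2 calls. Calls were lost in 3 of these 6 fits, and a second probe, of Plec, passed when 1 µM replicate 2 was left out. The probe passed in 12 of 17 other settings. Dividing each array by its slope on the other doses, chosen after seeing the data, gave -3.95. No gene was called in any of 19 other settings (410 to 843 of all genes at an unadjusted p under 0.05). The change of Fkbp1a was -0.0018 with quantile normalization and -0.17 as a median over probes. With 1 array left out it ran from -0.051 to 0.10, that of Fkbp4 from -0.16 to 0.20, Rpl5 from -0.019 to 0.35, Atg5 from -0.13 to 0.32, Emcn from -0.0050 to 0.30 and Bub1b from -0.52 to 0.027. For Atg5 a probe blank on 1 µM replicate 2 entered when that array was left out; the other causes were not tested. Of 145 named genes and probes other than 27598, 0 were called in any setting. The number of arrays limits the precision.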

Other observations

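By their mean level on the 6 arrays of the other doses, the median change at 1 µM was 0.12 over 90 genes below -2, 0.03 over 482 genes between -2 and -1, -0.07 over 861 genes between 1 and 2, and -0.24 over 62 genes above 2. The leukocyte markers lay at a median of -0.73 on those arrays and the fibroblast and matrix genes at 1.10. The medians by level were not alike over the replicate numbers. Between same-numbered arrays 1, 2 and 3 they were 0.34, -0.07 and -0.0010 for genes below -2 and 0.20, -0.04 and -0.03 for genes between -2 and -1, so in both bins the median was above 0 for number 1 alone. For genes above 2 they were 0.05, -0.45 and -0.20. The part of level in the list medians was not tested.

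Of the probes with no name, 2 more had small p-values. Probe 28107 was at -0.75, -0.74 and -1.23 in control and at 0.67, 0.29 and 0.39 at 1 µM, a change of 1.35 (SE 0.21) with no overlap. Probe 20194 had values on 2 control arrays, at -0.20 and -0.13, and was at -1.50, -1.63 and -1.64 at 1 µM. Neither passed (limma adjusted p 0.444).

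Blank spots were not even between the groups. A value was present on all 3 control arrays and on 0 arrays at 1 µM for 71 probes, of which 44 have a symbol, and the reverse held for 24 probes, of which 13 have one. Most of these spots were also blank on some array of the other doses: 4 of the 71 and 2 of the 24 had values on all 6. These probes entered no test.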
